A study of Mus musculus with 6 samples.

Results

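The glutathione transferases, UDP-glucuronosyltransferases and sulfotransferases, the conjugation enzymes of phase 2 metabolism, were followed in the livers of WT mice and of mice lacking Vps15 in hepatocytes. The members were all protein-coding genes whose GRCm38 symbol starts with Gsta, Gstk, Gstm, Gsto, Gstp, Gstt, Gstz, Mgst, Ugt or Sult followed by a number. There were 68 such genes among the 56305 genes measured: 22 cytosolic or mitochondrial Gst genes, 3 microsomal Mgst genes, 22 Ugt genes and 21 Sult genes. Each genotype had 3 livers, each sequenced as 1 RNA-seq library, from male mice aged 5 weeks that were fed ad libitum and killed at ZT6. Vps15LKO mice were AlbCre+;Vps15 f/f, so both floxed alleles of Vps15, the regulatory subunit in the class 3 PI3K complex, were deleted by Cre under the albumin promoter. That promoter is active in hepatocytes, and whether the other cells of these livers kept the gene was not measured. The labels call the controls WT and give neither their floxed alleles nor their Cre. No treatment was given to either genotype.

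Conjugation makes reactive or poorly soluble molecules larger and more polar, so that they can be exported into bile or blood. Glutathione transferases join the cysteine of glutathione to electrophiles, UDP-glucuronosyltransferases of the endoplasmic reticulum add a sugar from UDP-glucuronate to bilirubin, bile acids, steroids and drugs, and cytosolic sulfotransferases add sulfate from PAPS to phenols, steroids and bile acids. In liver these genes are known to respond to Nrf2, to the receptors CAR, PXR and AhR, to hepatocyte factors such as HNF4a, and, for some members, to the sex-dependent pattern of growth hormone.

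Values are read counts divided by 1 DESeq2 size factor per library, hereafter normalized counts, and 16137093 to 18110223 reads per library lay on genes. The size factors were 0.742 to 0.801 in WT and 1.23 to 1.41 in Vps15LKO libraries. Scaling the libraries to equal read totals instead moved the log2 fold change of the median gene up by 0.72, and upper-quartile scaling moved it up by 0.12. Pik3r4, which encodes Vps15, had 508, 573 and 460 normalized counts in WT and 341, 362 and 355 in Vps15LKO livers. Its log2 fold change of −0.54 (adjusted p = 0.00207, limma) became 0.19 and was not called under total-read scaling. Of 14 hepatocyte markers, which include Alb, Ttr and Cps1, none was at 0 in any liver and 12 were called lower, with a median log2 fold change of −1.95. Over all tested genes 33.0% were called lower. Under total-read scaling 12 markers were lower, with a median of −1.22, beside 11.1% of all tested genes. The normalized counts of the 14 markers summed to between 3532855 and 3939414 per WT liver and between 1028667 and 1537971 per Vps15LKO liver. In bulk liver RNA, fewer cells of a type and less RNA per cell cannot be told apart.

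The conjugation enzymes split by family in Vps15LKO liver, with GST genes moving in both directions and no UGT gene called higher (1 under total-read scaling and 2 under quantile normalization). The test was limma on log2(normalized count + 1), over genes that reached 20 normalized counts in 3 or more of the 6 livers. A call needed an adjusted p under 0.05 together with a 1.2-fold difference. Of the 68 members, 52 were tested, of which 13 were higher, 36 lower and 3 not called. Among all 15430 genes tested, 66.5% were called, 33.5% higher and 33.0% lower. Outside the Ugt1a locus, whose 9 genes share most of their reads, 43 members were tested, of which 13 were higher and 27 lower, a share near that of all genes for the higher members and above it for the lower ones. The median log2 fold change was −1.25 over the 52 tested members and −0.94 over the 43, against −0.02 over all tested genes. By family, 8 Gst genes were higher and 10 lower of 20 tested, 1 Mgst gene was higher and 1 lower, 18 of 19 Ugt genes were lower, and 4 Sult genes were higher and 7 lower of 11. Without Vps15LKO replicate 1, 5 Gst genes were higher. The values of the 3 WT and 3 Vps15LKO livers did not overlap in 47 of the 52 tested members, beside 73.2% of all tested genes. Sult2a1, Sult2a2, Sult2a5 and Sult2b1 passed the filter only through their Vps15LKO values, and Sult2a7 and Sult5a1 only through their WT values, so these 6 genes had to differ. Gsta1, Ugt2b37 and Ugt3a1 reached 20 normalized counts in 2 of 3 livers of the genotype where they were low, so they too met the filter through the other genotype, and no p is given for them.

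**Figure D1:**
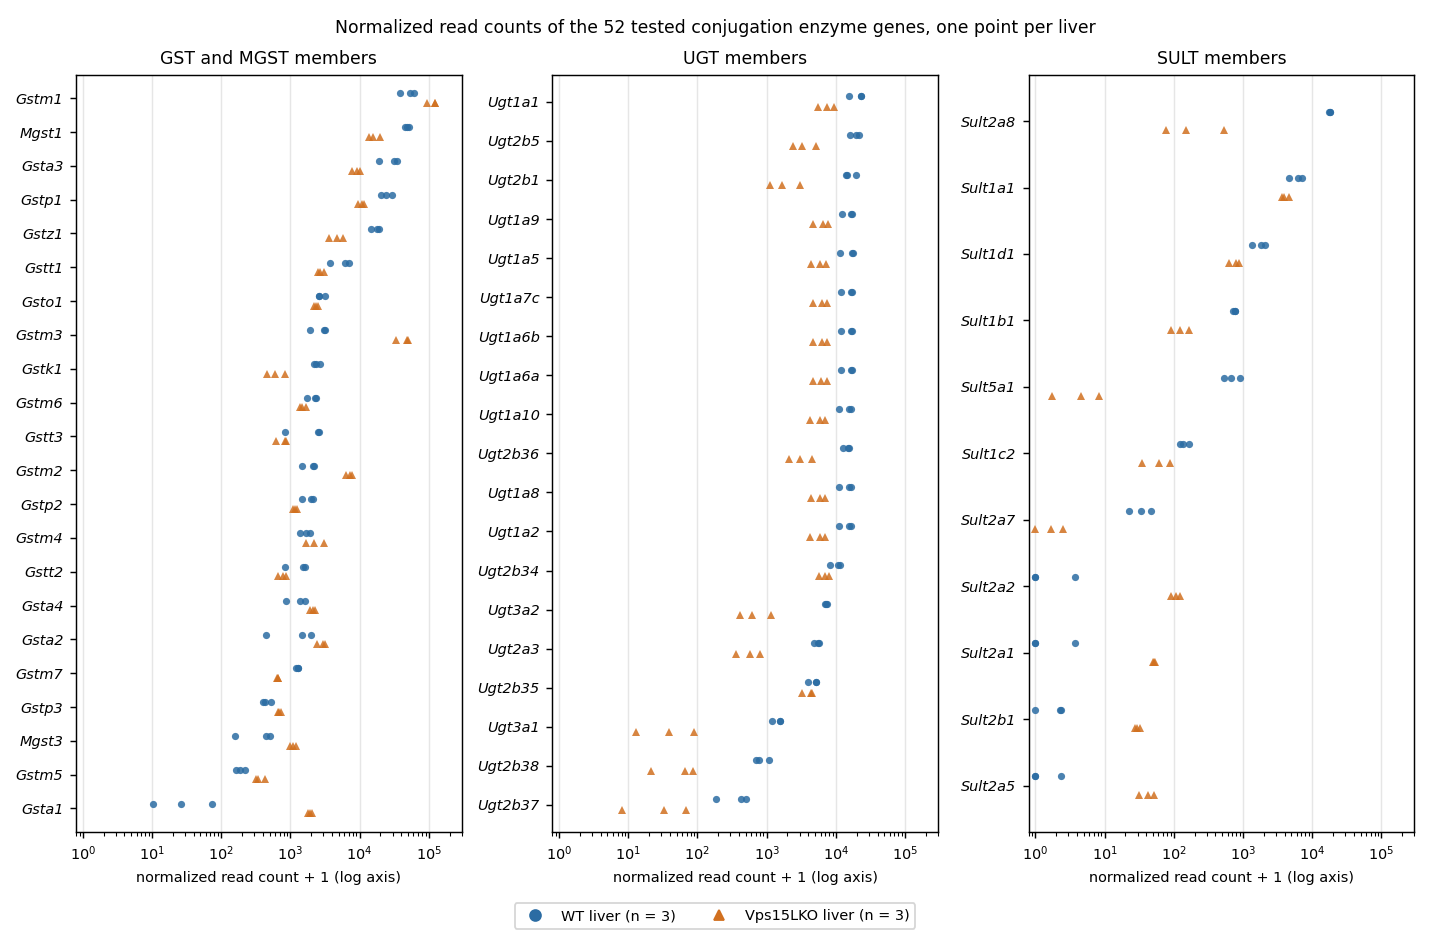
Normalized read counts + 1 (log axis) of the 52 tested members, with 1 blue circle per WT liver and 1 orange triangle per Vps15LKO liver, ordered by the WT mean within each panel. The triangles lie right of the circles in Gsta1, Gstm3, Gstm2 and Sult2a2, and left of them in Sult2a8, Sult5a1 and 18 of 19 Ugt genes.

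Of the 13 higher calls, 8 were of genes with at least 20 normalized counts in all 6 livers, and all 8 were kept under total-read, TMM, upper-quartile and quantile scaling, which called 66.7%, 34.8%, 37.3% and 30.4% of all tested genes higher. Of the 36 lower calls, 16 were kept under all 4, and 12 of these 16 genes had at least 20 in all 6 livers. Total-read scaling gave 16 members higher and 27 lower (11.1% of all tested genes lower), and quantile normalization gave 16 higher and 20 lower (37.6%). The 16 were Gstk1, Gstz1, Sult1b1, Sult1d1, Sult2a7, Sult2a8, Sult5a1, Ugt1a5, Ugt2a3, Ugt2b1, Ugt2b36, Ugt2b37, Ugt2b38, Ugt2b5, Ugt3a1 and Ugt3a2.

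**Figure D2:**
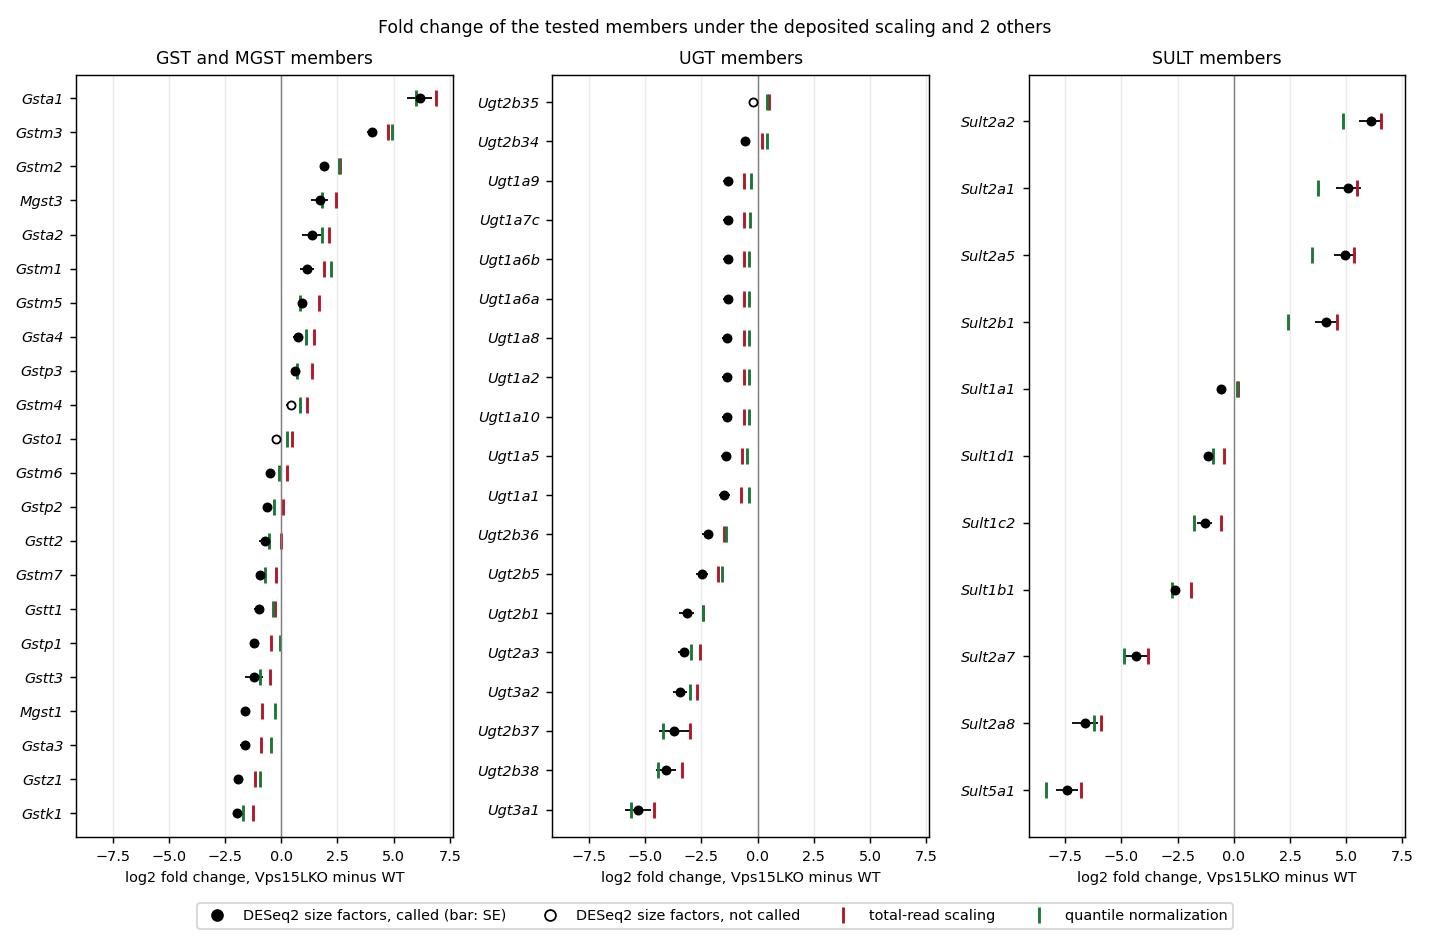
Log2 fold change (Vps15LKO minus WT) of the tested members, as black circles with the SE as a bar (filled where called, open where not), with red ticks for total-read scaling and green ticks for quantile normalization. Gsta1, Gstm3 and Sult2a2 stay above 0 and Sult2a8, Sult5a1 and Ugt3a1 below 0 under all 3, while the ticks of Ugt2b34, Ugt2b35, Sult1a1 and Gsto1 lie on the other side of 0 from the circles.

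Libraries within a genotype stood apart in the same order in many members. WT replicate 3 was the lowest WT liver in 31 of the 43 tested members outside the Ugt1a locus, and its median ratio to the mean of the other WT livers was 0.774. Over all tested genes it was the lowest in 5915 of 15430, with a median ratio of 0.982. Vps15LKO replicate 2 was the highest Vps15LKO liver in 21 of the 27 members called lower outside the Ugt1a locus, and replicate 3 was the lowest in 24. Among the 13 members called higher, replicate 1 was the highest Vps15LKO liver in 9 and replicate 3 the lowest in 9. The summed hepatocyte markers were also highest in Vps15LKO replicate 2 (1537971 normalized counts) and lowest in replicate 3 (1028667). Their part in the member values was not tested.

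The mu class, encoded by 7 neighbouring Gstm genes on chromosome 3 from 107895821 to 108044894, rose in 4 members and includes Gstm1, the most abundant member per kb of exon in both genotypes. Per kb of the principal transcript, Mgst1 was the most abundant in WT liver, at 41777 against 39554 for Gstm1. Gstm1, which conjugates a wide range of electrophiles, had 60759, 53294 and 38903 normalized counts in WT and 123227, 122902 and 93302 in Vps15LKO livers. Every Vps15LKO liver lay above every WT liver. Its log2 fold change was 1.16 (SE 0.31, adjusted p = 0.00911, limma), and the call was lost without Vps15LKO replicate 1 (log2 fold change 1.09). Gstm3 had 3051, 3196 and 1911 in WT and 48457, 50022 and 33986 in Vps15LKO livers, a log2 fold change of 4.04 (SE 0.23, adjusted p = 2.92e-06, limma). The lowest Vps15LKO liver was thus far above the highest WT liver. Gstm2 rose from 2126, 2198 and 1471 to 7751, 7376 and 6351 (log2 fold change 1.91).

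Not all genes of the mu cluster moved with them. Gstm5, at the edge of the cluster, rose from 217, 162 and 183 to 340, 314 and 429 (log2 fold change 0.94), and 13.9% of its exonic bases overlap a gene on the other strand, whose reads may not be separate. Its neighbour Gstm7 had 1307, 1199 and 1286 in WT and 646, 669 and 661 in Vps15LKO livers, and fell by 0.94 on the log2 scale, though its call was lost under total-read scaling (−0.21). Gstm6 fell by 0.49, a direction that turned under total-read scaling (0.24). Gstm4, with 1366 to 1915 in WT and 1663 to 3012 in Vps15LKO livers, overlapped between genotypes and was not called (log2 fold change 0.44, adjusted p = 0.0967, limma), but was called without Vps15LKO replicate 3 (0.65) and under total-read scaling (1.17), upper-quartile scaling (0.56) and quantile normalization (0.85). In the cluster, Gstm5 and Gstm7 were therefore neighbours called in opposite directions, as were Gstm6 and Gstm3, though Gstm6 turned under total-read scaling.

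The alpha class, which conjugates products of lipid peroxidation and also binds bilirubin and bile acids, rose at 3 genes of chromosome 9 and fell at Gsta3, which lies on chromosome 1. Gsta1 was almost silent in WT liver, at 71.6, 25.0 and 9.44 normalized counts, and had 2048, 1814 and 1930 in Vps15LKO livers. Its log2 fold change of 6.16 was the largest among GST genes, and was 5.47 without WT replicate 3 and 6.87 without WT replicate 1. Only 19.4% of the windows of 100 bases in its exons are unique to it, so its reads could be split with Gm3776, a near copy beside it, which rose from 43.8, 21.2 and 10.8 to 948, 741 and 714 (log2 fold change 5.13). Gsta2 had 1989, 1470 and 438 in WT and 3171, 2955 and 2458 in Vps15LKO livers (log2 fold change 1.39, adjusted p = 0.0282, limma). WT replicate 3 stood lowest here, and without it the log2 fold change was 0.73. The call of Gsta2 was lost without Vps15LKO replicate 1 or without replicate 2 (1.31 and 1.36). Gsta4, which acts on 4-hydroxynonenal, rose from 1635, 1396 and 867 to 2233, 2087 and 1916 (log2 fold change 0.72), a call lost without Vps15LKO replicate 1 (0.67). Gsta3, which protects mice against aflatoxin epoxide, had 35276, 31394 and 19223 in WT and 9200, 10206 and 7858 in Vps15LKO livers. It fell by 1.62 on the log2 scale (SE 0.24, adjusted p = 0.000378, limma), and the call was lost under quantile normalization (−0.44).

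The sequences before the RefSeq starts of these genes (build GRCm38.p6, with bases of annotated exons left out) are shown because the alpha genes moved in opposite directions. The stretches are chr9:78230419-78230655 on the plus strand for Gsta1, chr9:78347169-78347395 on the minus strand for Gsta2, whose RefSeq start lies inside its longer GENCODE span, and chr1:21240335-21240584 on the plus strand for Gsta3. Capitals mark the longest run of bases that Gsta1 and Gsta2 have in common, of 29 bases, and in Gsta3 the match to TGACNNNGC, the core of the antioxidant response element.
Gsta1: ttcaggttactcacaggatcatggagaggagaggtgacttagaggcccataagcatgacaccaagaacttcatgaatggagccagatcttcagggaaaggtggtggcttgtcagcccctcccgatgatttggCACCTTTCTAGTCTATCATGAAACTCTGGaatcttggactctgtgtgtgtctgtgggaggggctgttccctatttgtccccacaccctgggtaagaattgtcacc
Gsta2: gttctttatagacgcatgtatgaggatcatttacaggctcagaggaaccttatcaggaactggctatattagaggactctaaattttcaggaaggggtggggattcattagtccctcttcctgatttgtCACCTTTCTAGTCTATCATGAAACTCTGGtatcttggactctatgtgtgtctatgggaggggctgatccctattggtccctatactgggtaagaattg
Gsta3: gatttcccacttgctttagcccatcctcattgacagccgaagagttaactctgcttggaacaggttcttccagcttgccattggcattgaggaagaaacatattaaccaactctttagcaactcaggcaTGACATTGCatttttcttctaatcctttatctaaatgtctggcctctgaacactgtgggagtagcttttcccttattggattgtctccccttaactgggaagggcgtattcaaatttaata
The Gsta1 and Gsta2 stretches were identical in 70.6% of 248 alignment columns, and those of Gsta1 and Gsta3 in 54.4% of 274.

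RefSeq promoter windows matched 60 of the 68 members, and motifs were searched on both strands. TGACNNNGC was in the windows of 4 members, Gsta3, Gstm5, Gstm7 and Mgst1, of which Gstm5 was called higher and the others lower, and in those of 13.99% of all 27025 genes. The variant TGAGNNNGC was in 14 members, 2 of the 10 matched higher members and 10 of the 32 matched lower ones, beside 19.85% of all genes. GCGTG, the core of the xenobiotic response element bound by AhR, was in 13 members, 7 of the 10 matched higher members and 5 of the 32 matched lower ones, beside 35.15% of all genes. CACGTG, the E-box, was in no member window and in 8.093% of all genes. These letter matches are descriptions of the windows, not binding sites.

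The pi class lies within 24.2 kb of chromosome 19 and also moved in both directions. Gstp1 had 24478, 20298 and 29153 normalized counts in WT and 10763, 11686 and 9557 in Vps15LKO livers. It fell by 1.197 on the log2 scale (SE 0.18, adjusted p = 0.000384, limma), with no call under quantile normalization (−0.05). Gstp2 fell by 0.65, a direction that turned under total-read scaling (0.08), and 53.1% of its exonic windows are unique, most of the rest being common to Gstp1. Next to it, Gstp3 rose from 522, 422 and 403 to 738, 659 and 673 (log2 fold change 0.63, adjusted p = 0.00153, limma).

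The theta, kappa, zeta and omega genes had no member called higher with the deposited scaling. Gstk1, an enzyme of mitochondria and peroxisomes, fell from 2676, 2317 and 2193 to 605, 822 and 461, with a log2 fold change of −1.96 (SE 0.19, adjusted p = 3.95e-05, limma). Gstz1, which isomerizes maleylacetoacetate in tyrosine breakdown, fell from 19034, 17867 and 14726 to 4649, 5684 and 3598 (log2 fold change −1.91), and 12.2% of its exonic bases overlap genes on the other strand. Both stayed lower under all scalings tried. Gstt1 and Gstt3 had log2 fold changes of −0.99 and −1.204, but neither was called under total-read scaling. Gstt2 and Gstt3 overlapped between genotypes because WT replicate 3 was low (830 in both), and each lost its call without WT replicate 1, without WT replicate 2 or without Vps15LKO replicate 3 (Gstt2 −0.56 to −0.64, Gstt3 −0.92 to −1.05). Gsto1, which reduces dehydroascorbate, was not called (log2 fold change −0.24, adjusted p = 0.0891, limma) and was higher under total-read scaling (0.48). Gsto2 held 1.33 to 6.25 normalized counts and Gstt4 none in any liver.

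The microsomal enzymes, membrane proteins unrelated in fold to the cytosolic ones, were dominated by Mgst1. It fell from 51659, 45798 and 48803 to 15504, 20048 and 13527 (log2 fold change −1.59, adjusted p = 0.000167, limma), with no call under quantile normalization (−0.30). Mgst3 rose from 509, 450 and 158 to 1085, 1186 and 1002 (log2 fold change 1.72, SE 0.38). Mgst2 was at or under the floor of 3 reads in each WT library and had 24.4, 13.8 and 14.1 in Vps15LKO livers, at least 4.45-fold higher, but did not pass the filter.

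Per kilobase of exon, the GST families moved in opposite directions in sum. The Gst genes summed to 78558 ± 11804 normalized counts per kb (SD, n = 3) in WT and 139121 ± 20981 (SD, n = 3) in Vps15LKO livers, 1.77 times as much. Every Vps15LKO liver was above every WT liver, and the exact two-sided permutation p was 0.1, the smallest that 3 against 3 allows. The Mgst sum was 2.69 times lower in Vps15LKO livers. Under total-read scaling the log2 ratio of the Gst sum went from 0.82 to 1.55 and that of the Mgst sum from −1.43 to −0.71. A share within a library does not depend on the scaling between libraries. The mu class made up 51.6% ± 3.96 of the Gst sum in WT and 84.4% ± 1.15 in Vps15LKO livers (exact two-sided permutation p = 0.1). Gstm3 went from 2.62% to 24.1% and Gstm1 from 43.8% to 55.2%, while the pi class went from 23.6% to 6.31% and the alpha class from 10.9% to 5.93%. The change of the alpha class, −5.01 percentage points, was −9.43 with the principal transcript length and −12.8 without division by length. Gsta3, the most abundant alpha gene in WT liver per kb, held 8.27% of the Gst sum there and 1.51% in Vps15LKO livers.

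**Figure D3:**
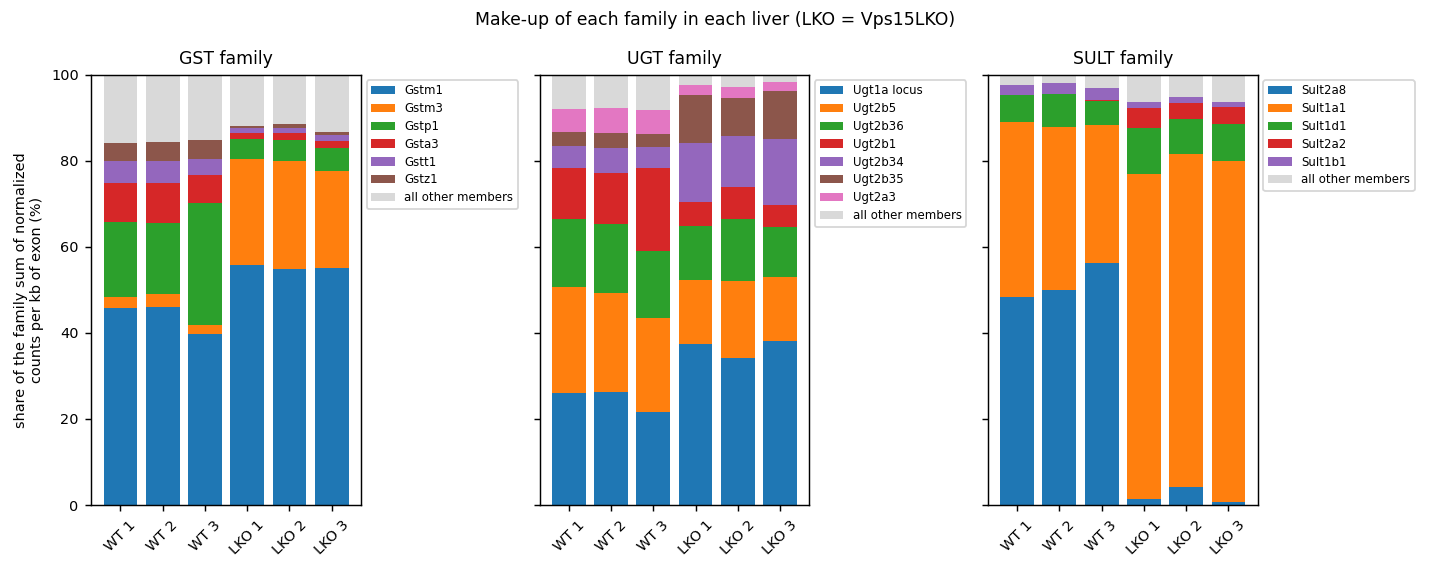
Share of the family sum of normalized counts per kb of exon (%) in each of the 6 livers, for the named members and all others in grey. Gstm1 and Gstm3 fill most of the GST bars of Vps15LKO livers, Sult1a1 takes 75.7% to 79.2% of their SULT bars, and Sult2a8 takes 48.3% to 56.3% of the WT SULT bars.

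The UGT genes fell or were not called, apart from Ugt2b34 and Ugt2b35, whose direction turned under other scalings. The 9 Ugt1a genes lie on chromosome 1 from 88055388 to 88220002 and are made by joining 1 of several alternative opening exons to a common set of final exons. All 9 share 1311 exonic bases, and the reads there, 12350, 12485 and 8272 in WT and 7604, 8557 and 6077 in Vps15LKO livers, were counted for each of the 9 genes. These reads were taken as the lowest count among the 9 genes in each library, so they are an upper limit for the shared exons, and the gene with that count has no read beyond them by construction. They made up 72.3% of the reads of Ugt1a1 and 91.9% to 99.998% of those of the other genes. The 9 lower calls, with log2 fold changes of −1.31 to −1.48, are therefore not 9 separate measurements. Gm20528, an antisense gene with none of its 1062 exonic bases outside Ugt1a exons, held 9204, 9690 and 6047 reads in WT and 4980, 5875 and 3884 in Vps15LKO livers, and whether counting separated the strands there was not tested.

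Beyond the shared exons, each Ugt1a gene with enough reads was also lower with the deposited scaling, the only one applied to this split. Ugt1a1, the enzyme of bilirubin glucuronidation, had 6990, 7382 and 4218 normalized counts there in WT and 1653, 2423 and 1203 in Vps15LKO livers. The groups did not overlap, and the log2 fold change was −1.83 (SE 0.28, adjusted p = 0.000471, limma). Ugt1a5 fell from 1038, 1415 and 318 to 105, 252 and 55.9 (log2 fold change −2.76). Ugt1a6a, Ugt1a6b and Ugt1a7c, which share exonic bases with each other, fell by 1.14, 1.098 and 0.97, and Ugt1a9 by 0.86. The counts of Ugt1a2, Ugt1a8 and Ugt1a10 lay within 10 reads of the lowest in each library, though 900, 909 and 949 of their exonic bases belong to no other Ugt1a gene. Ugt1a1 has 913 such bases and held the 1203 to 7382 normalized counts given above. This split was chosen after seeing the data. Of the 9 calls, that of Ugt1a5 held under all 4 scalings, and the others were lost under quantile normalization (−0.30 to −0.39).

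**Figure D4:**
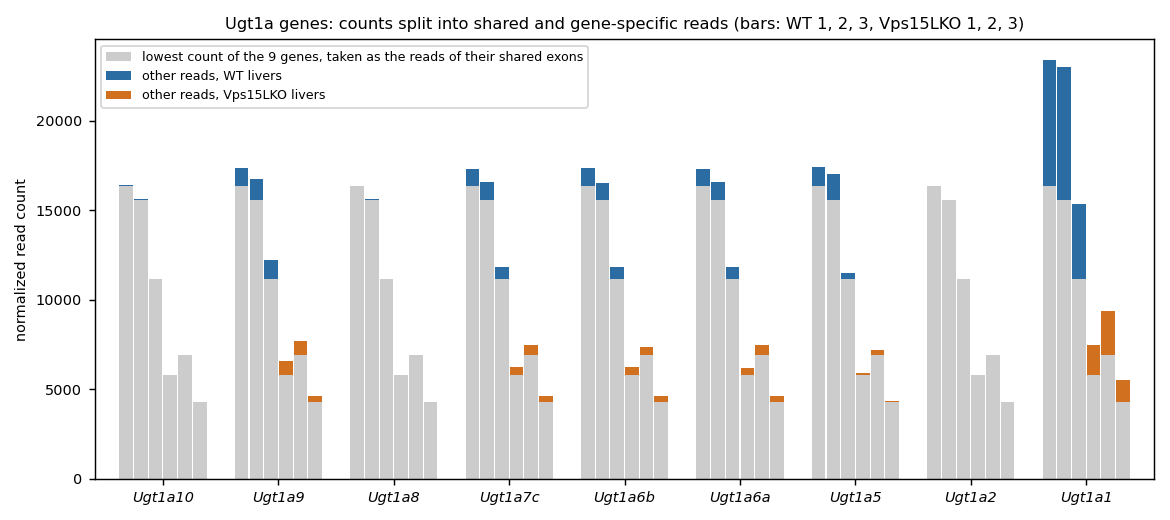
Normalized read count of the 9 Ugt1a genes in 6 bars each (WT replicates 1 to 3, then Vps15LKO replicates 1 to 3), with the lowest count of the 9 genes, taken as the reads of their shared exons, in grey and other reads in color. The grey parts are the same in all 9 genes, and Ugt1a1 has the largest colored part.

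The Ugt2 genes, which act on steroids, bile acids and drugs, lie together on chromosome 5 from 86889767 to 87490871 and fell in 7 of the 8 tested, of which Ugt2b34 turned under other scalings. Ugt2b5 had 21799, 19452 and 15959 normalized counts in WT and 3256, 5165 and 2381 in Vps15LKO livers, with a log2 fold change of −2.47 (SE 0.26, adjusted p = 6.24e-05, limma). Ugt2b1 fell from 14627, 13889 and 19692 to 1691, 3040 and 1099 (log2 fold change −3.16). Ugt2b36 fell from 15568, 14922 and 12646 to 3073, 4548 and 2103 (log2 fold change −2.21). In all 3 the highest Vps15LKO liver, replicate 2, stayed far below the lowest WT liver. The largest falls of the cluster were those of Ugt2b38, from 1079, 711 and 783 to 85.5, 65.6 and 20.5 (log2 fold change −4.08), and Ugt2b37, from 500, 420 and 185 to 67.2, 31.6 and 7.07 (log2 fold change −3.70). Without Vps15LKO replicate 3, the lowest liver in both, they were −3.48 and −2.85, and Ugt2b37 was −4.39 without Vps15LKO replicate 1. Ugt2a3 fell by 3.28 on the log2 scale. Ugt2b38 and Ugt2b5 share part of their sequence, with 75.8% and 75.3% of their exonic windows unique.

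Ugt2b34, the first gene of the cluster, and Ugt2b35 had the smallest log2 fold changes among its tested genes. Ugt2b34 had 10662, 11333 and 8120 in WT and 7001, 7916 and 5701 in Vps15LKO livers, and its fall of 0.54 (adjusted p = 0.022, limma) turned to 0.18 under total-read scaling and to 0.43 under quantile normalization, where it was called higher. That call was also lost when WT replicate 1, WT replicate 2, Vps15LKO replicate 1 or Vps15LKO replicate 3 was left out (−0.42 to −0.56). Ugt2b35, at 3913 to 5143 in WT and 3254 to 4563 in Vps15LKO livers, overlapped and was not called (log2 fold change −0.22, adjusted p = 0.271, limma), and was called higher under both of these scalings. Their shares of the Ugt sum per kb went from 5.25% to 13.6% and from 3.16% to 10.4%.

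Both Ugt3 genes, which use other sugar donors than UDP-glucuronate, fell. Ugt3a1 had 1541, 1555 and 1189 normalized counts in WT and 38.2, 87.5 and 12.02 in Vps15LKO livers (log2 fold change −5.32). It was −5.97 without Vps15LKO replicate 2 and −4.59 without Vps15LKO replicate 3. Ugt3a2 fell from 7399, 7139 and 6954 to 606, 1162 and 410 (log2 fold change −3.44). In sum per kb, with the Ugt1a locus counted once, the Ugt family had 44212 ± 4351 (SD, n = 3) in WT and 11981 ± 3434 (SD, n = 3) in Vps15LKO livers, 3.69 times less (exact two-sided permutation p = 0.1). The log2 ratio of that sum was −1.88, but −1.17 under total-read scaling. The Ugt1a locus made up 24.6% of that sum in WT and 36.5% in Vps15LKO livers, a change of 11.9 percentage points that was 6.07 without division by length.

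Among sulfotransferases the hydroxysteroid genes of the Sult2a cluster on chromosome 7, from 13623967 to 14494230, included genes that fell and genes that rose. Sult2a8, a sulfotransferase of bile acids and the most abundant Sult transcript per kb in WT liver, had 18388, 18173 and 17490 normalized counts there and 149, 531 and 76.4 in Vps15LKO livers. The WT values were within a narrow range, whereas Vps15LKO replicate 2 was well above the other Vps15LKO livers. The log2 fold change was −6.62 (SE 0.57, adjusted p = 1.97e-05, limma), and was −7.39 without Vps15LKO replicate 2 and −6.00 without Vps15LKO replicate 3. Sult2a7, its neighbour, had 46.4, 32.5 and 21.6 in WT and at most 2 reads in each Vps15LKO library, at least 14.7-fold lower.

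At the other end of the cluster, genes almost without reads in WT liver appeared. Sult2a2 had 0, 0 and 2.70 normalized counts in WT and 122, 107 and 90.5 in Vps15LKO livers, at least 27.2-fold higher against a floor of 3 reads in each WT library. Sult2a1 had 0, 0 and 2.70 in WT and 53.5, 51.1 and 49.5 in Vps15LKO livers, at least 13.1-fold higher. Sult2a5 had 0, 0 and 1.35 in WT and 50.4, 41.3 and 30.4 in Vps15LKO livers, at least 10.4-fold higher. The single WT liver with reads was replicate 3 in all 3 genes. Sult2a2 has 65.4% unique exonic windows, most of the rest being common to Sult2a5, so these genes can trade reads. Sult2a4 and Sult2a6 held no read in WT and 14.5 to 17.0 and 15.6 to 26.7 in Vps15LKO livers, at least 4.06-fold and 5.73-fold higher, but did not pass the filter. Sult2a3 had 3.05 normalized counts in Vps15LKO replicate 1 and none elsewhere.

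**Figure D5:**
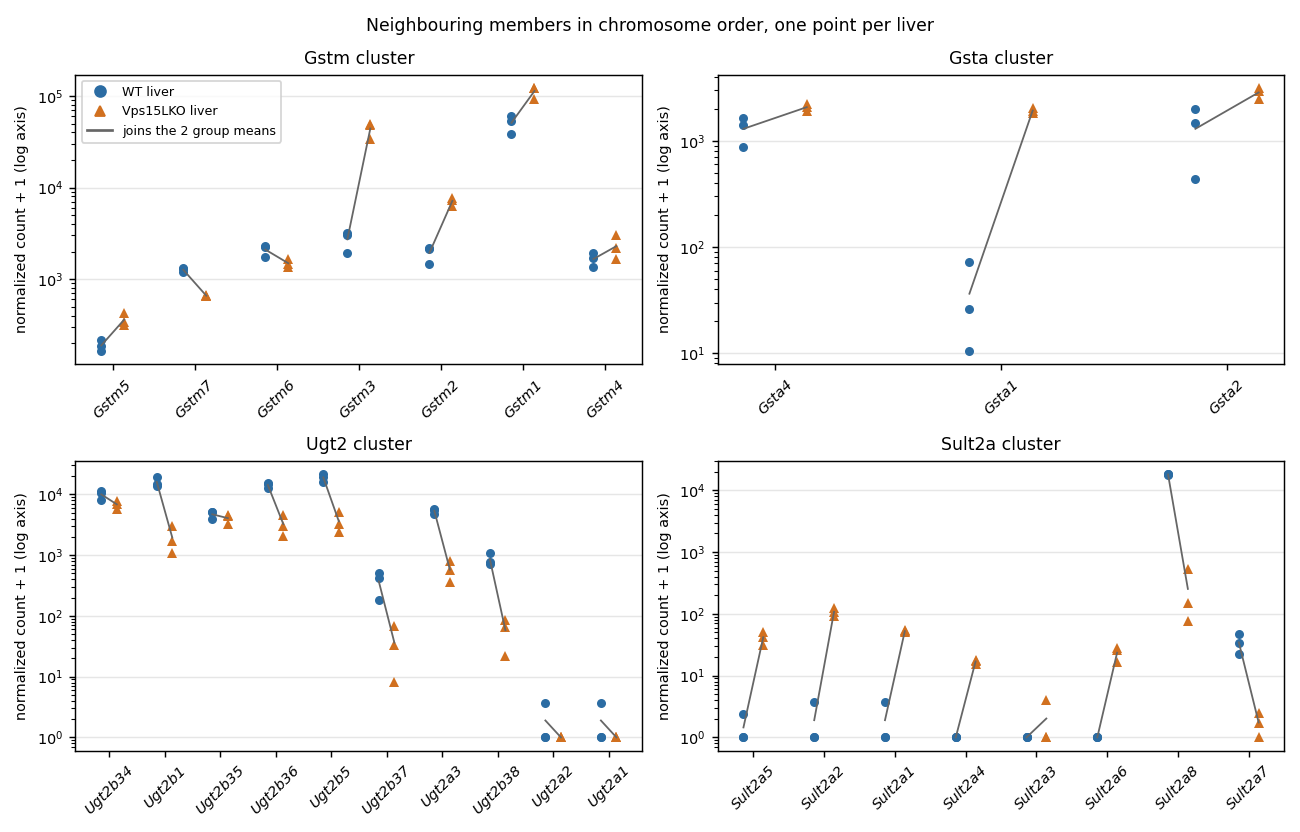
Normalized count + 1 (log axis) of the genes of 4 clusters in chromosome order, with 1 blue circle per WT liver, 1 orange triangle per Vps15LKO liver and a line between the group means. In the Sult2a cluster Sult2a8 and Sult2a7 fall and Sult2a5, Sult2a2 and Sult2a1 rise; in the Gstm cluster Gstm3 moves most; in the Ugt2 cluster Ugt2b34 and Ugt2b35 move least among the tested genes.

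The RefSeq sequences before the starts of 4 Sult2a genes with few or no WT reads are shown because these neighbours were all at or near 0 in WT liver. They are chr7:13623717-13623966 on the plus strand for Sult2a5, and on the minus strand chr7:13989608-13989838 for Sult2a4, chr7:14123049-14123298 for Sult2a3 and chr7:14254871-14255120 for Sult2a6. Capitals mark the longest run of bases that all 4 stretches have in common, of 15 bases.
Sult2a5: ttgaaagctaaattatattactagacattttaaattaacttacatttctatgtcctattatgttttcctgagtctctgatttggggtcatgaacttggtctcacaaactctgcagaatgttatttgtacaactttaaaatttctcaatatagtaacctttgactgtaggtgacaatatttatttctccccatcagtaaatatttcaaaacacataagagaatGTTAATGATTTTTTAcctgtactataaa
Sult2a4: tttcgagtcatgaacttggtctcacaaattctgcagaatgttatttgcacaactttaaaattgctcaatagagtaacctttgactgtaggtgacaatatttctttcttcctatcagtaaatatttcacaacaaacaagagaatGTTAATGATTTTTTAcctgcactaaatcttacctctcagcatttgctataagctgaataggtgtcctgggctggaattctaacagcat
Sult2a3: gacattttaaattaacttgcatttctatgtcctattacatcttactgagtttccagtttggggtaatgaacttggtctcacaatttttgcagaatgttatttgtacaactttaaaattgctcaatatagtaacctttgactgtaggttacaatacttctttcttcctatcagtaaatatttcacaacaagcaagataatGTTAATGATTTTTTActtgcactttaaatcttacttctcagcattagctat
Sult2a6: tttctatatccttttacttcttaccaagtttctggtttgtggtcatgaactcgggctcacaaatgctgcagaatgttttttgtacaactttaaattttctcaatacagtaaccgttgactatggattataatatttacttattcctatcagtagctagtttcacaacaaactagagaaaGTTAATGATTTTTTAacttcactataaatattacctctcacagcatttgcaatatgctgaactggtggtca
Sult2a5 and Sult2a3 were identical in 73.3% of 273 alignment columns, Sult2a4 and Sult2a6 in 67.5% of 271, and Sult2a5 and Sult2a4 in 51.9% of 310. The alignments ran from end to end, so stretches offset from each other have more unmatched columns. The common run starts at −28 from the RefSeq start in Sult2a5 and at −107 in Sult2a4.

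The 4 tested Sult1 genes all fell, though Sult1a1 turned under total-read scaling and quantile normalization. Sult1a1, which sulfates phenols, had 7107, 6302 and 4554 normalized counts in WT and 3903, 4619 and 3606 in Vps15LKO livers. Vps15LKO replicate 2 overlapped WT replicate 3, and the fall of 0.55 (adjusted p = 0.0222, limma) turned to 0.18 under total-read scaling and 0.15 under quantile normalization. The call was also lost without WT replicate 1, WT replicate 2, Vps15LKO replicate 1 or Vps15LKO replicate 3 (−0.41 to −0.53). Sult1b1, which sulfates thyroid hormones, fell from 712, 764 and 771 to 121, 165 and 90.5 (log2 fold change −2.61, SE 0.20, adjusted p = 1.01e-05, limma). Its neighbour Sult1d1, a catecholamine sulfotransferase, fell from 1838, 2065 and 1329 to 884, 801 and 634 (log2 fold change −1.16). Sult1e1, the estrogen sulfotransferase beside them, had no read in WT and 30.5, 8.10 and 67.2 in Vps15LKO livers, at least 8.99-fold higher (4.93-fold without Vps15LKO replicate 3), without passing the filter. Sult1c2 fell from 166, 135 and 123 to 60.3, 88.3 and 33.2 (log2 fold change −1.30), with no call under total-read scaling (−0.58).

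Sult5a1 showed the largest fall of all members, from 676, 533 and 905 to 0.764, 7.29 and 3.54 (log2 fold change −7.41, and −6.81 without Vps15LKO replicate 1). It passed the filter only through its WT values, so no test is given. Sult2b1, the cholesterol sulfotransferase, had 1.33, 1.25 and 0 in WT and 28.3, 26.7 and 31.1 in Vps15LKO livers, at least 7.32-fold higher. In sum per kb the Sult family had 10706 ± 1111 (SD, n = 3) in WT and 3469 ± 470 (SD, n = 3) in Vps15LKO livers, 3.09 times less (exact two-sided permutation p = 0.1). The log2 ratio of that sum was −1.63, but −2.30 without division by length and −0.90 under total-read scaling. Sult2a8 went from 51.5% to 2.06% of that sum and Sult1a1 from 36.8% to 77.4%.

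The other members not tested were low in every liver. Sult1c1, Sult6b2 and Gstt4 had no read, and Sult3a1, Sult3a2, Sult6b1, Ugt2a1 and Ugt2a2 at most 8.40 normalized counts in any liver. Sult4a1 had up to 4.95 in Vps15LKO livers. Ugt8a, a galactosyltransferase of ceramide, had 0, 3.75 and 1.35 in WT and 5.35, 12.97 and 19.8 in Vps15LKO livers. In a fit without the filter on low values, Mgst2, Sult1e1, Sult2a4, Sult2a6, Sult4a1 and Ugt8a were called higher, beside 23.4% of all genes in that fit. It took all genes with a value above 0 in at least 1 liver. Sult1e1, Sult2a4 and Sult2a6 had no read in WT, so they entered it only through Vps15LKO livers and could only be higher.

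Genes of cofactor supply were called in both directions, and their counts stand beside 33.5% higher and 33.0% lower over all tested genes, or 66.7% and 11.1% under total-read scaling. For UDP-glucuronate, 2 of 6 tested genes were higher and 4 lower, and the 4 falls were lost under total-read scaling. Ugdh, which oxidizes UDP-glucose to UDP-glucuronate, rose from 3950, 4025 and 2258 to 5855, 6491 and 4598 (log2 fold change 0.76, call lost without Vps15LKO replicate 1 at 0.73). Ugp2, which makes UDP-glucose, fell by 0.61, a direction that turned under total-read scaling (0.12), and its call was lost without WT replicate 1 or 2 (−0.54 and −0.51). For PAPS, 1 of 8 genes was higher and 5 lower (4 and 3 under total-read scaling). Papss2, the main PAPS synthase of liver, fell from 5114, 6292 and 4169 to 1452, 1583 and 1209 (log2 fold change −1.86, adjusted p = 2.24e-05, limma), and Papss1 rose by 0.47 (log2). For glutathione, 8 of 18 genes were higher and 6 lower (11 and 6 under total-read scaling), and 6 of 18 is close to the share lower over all genes. Of the 8, 3 met the filter through their Vps15LKO values, among them Slc7a11. Of the 15 genes with at least 20 normalized counts in all 6 livers, 5 were higher and 6 lower. That 5 of 15 is close to the share higher over all genes. Gclc, the catalytic subunit of glutamate-cysteine ligase, rose from 10645, 9608 and 6202 to 23253, 22126 and 20134 (log2 fold change 1.34). Gss, glutathione synthetase, and Gsr, glutathione reductase, had log2 fold changes of 1.18 and 1.65, and the modifier subunit Gclm was not called (−0.17, 0.56 under total-read scaling). The largest of the 6 falls were those of Gls2, a glutaminase, and of Cth and Cbs, which make cysteine from homocysteine, with log2 fold changes of −2.49, −1.91 and −1.86, all called lower under total-read scaling too. Slc7a11, the cystine carrier, had no read in WT and 1814, 1489 and 2269 normalized counts in Vps15LKO livers.

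Other conjugating enzymes mostly fell, with 18 of 19 tested lower and none higher, at a median log2 fold change of −1.99. With total-read scaling the numbers were 15 and 1. Nat8, Nat8f1 and Keg1 had the largest falls, with log2 fold changes of −4.10, −3.49 and −3.30 (Nat8 −4.72 without WT replicate 3, Keg1 −3.89 without Vps15LKO replicate 2). Among 7 other proteins with a glutathione transferase fold or activity, 5 were higher and 1 lower, led by Hpgds, a prostaglandin D synthase (log2 fold change 3.27). Of 8 deconjugating enzymes 4 were higher and 3 lower, with Gusb, the lysosomal beta-glucuronidase, at 0.70. Of 12 exporters of conjugates 6 were higher and 3 lower. Over all tested genes 33.5% were higher and 33.0% lower. Under total-read scaling, with 66.7% and 11.1%, 5 deconjugating enzymes were higher and 2 lower, and 9 exporters were higher and 2 lower. Abcc4, an efflux pump of the blood-facing membrane, rose from 98.1, 122 and 68.7 to 2813, 2414 and 2417 (log2 fold change 4.74), Abcc1 had a log2 fold change of 3.14, and Abcb11, the bile salt export pump, fell by 2.40. The canalicular Abcc2 was not called (log2 fold change −0.0024), but was called higher under total-read scaling (0.72) and quantile normalization (1.05).

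Among 21 tested regulators of these genes 4 were higher and 15 lower, beside 33.5% and 33.0% of all tested genes. Under total-read scaling 9 were higher and 7 lower, beside 66.7% and 11.1%. Nfe2l2, which encodes Nrf2, rose from 1537, 1312 and 1469 to 2244, 2328 and 2112 (log2 fold change 0.63, SE 0.10, adjusted p = 0.000428, limma). Keap1, its inhibitor, fell by 0.29 on the log2 scale, but its call held under 0 of 4 other scalings, was higher under total-read scaling (0.43) and was lost without WT replicate 2 (−0.24). Nr1i3, which encodes CAR, fell from 4795, 4287 and 2887 to 966, 1075 and 683 (log2 fold change −2.13), and Nr1i2, which encodes PXR, fell by 0.71, to 0.01 with no call under total-read scaling. Ahr was not called (log2 fold change −0.04, 0.68 and higher under total-read scaling). Hnf4a and Ppara had log2 fold changes of −1.38 and −1.99, which stayed lower under all scalings tried.

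Target lists outside these families were counted in the same way and are read beside the same shares over all tested genes. Of 24 Nrf2 targets 16 were higher and 2 lower (median log2 fold change 1.04), led by Slc7a11, at least 473.4-fold higher, and by Cbr3 (7.67) and Srxn1 (4.41). Among the 22 of them with at least 20 normalized counts in all 6 livers, 14 were higher and 2 lower. Of 15 CAR and PXR targets 3 were higher and 7 lower, with Meg3 at 4.03 (3.43 without WT replicate 3), Cyp2c29 at −3.36 and Cyp2c37 at −2.94, and under total-read scaling 6 were higher and 5 lower (median log2 fold change −0.52, and 0.21 under that scaling). Of 7 AhR targets 5 were higher and 1 lower. Of 17 genes with male-biased expression in liver 15 were lower and none higher, with a median of −5.05. Of 19 female-biased genes 8 were higher and 6 lower, with Cyp2c40 at −3.20. Slc7a11, Cbr3, Meg3, Hpgds and Nat8 met the filter through the genotype where they were high, as did 5 of the 10 higher cholangiocyte markers, 7 of the 9 higher lymphocyte markers, 4 of the 7 fetal liver markers and 7 of the 15 lower male-biased genes.

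Markers of other liver cells were mostly higher in Vps15LKO livers, apart, with the deposited scaling, from those of endothelial cells. Of the tested markers 10 of 11 for cholangiocytes, 13 of 16 for macrophages, 13 of 13 for stellate cells, 9 of 11 for lymphocytes and 7 of 7 for fetal liver were higher, and of 12 endothelial markers 6 were higher and 5 lower. Over all tested genes 33.5% were higher and 33.0% lower. Under total-read scaling, with 66.7% and 11.1% over all tested genes, 8 endothelial markers were higher and 0 lower. The numbers higher were then 11 for cholangiocytes, 14 for macrophages, 13 for stellate cells, 10 for lymphocytes and 7 for fetal liver. Summed normalized counts ranged from 2223 to 2366 in WT and from 13754 to 25385 in Vps15LKO livers for cholangiocytes, from 11094 to 12929 and 38119 to 42219 for macrophages, and from 7643 to 8297 and 32613 to 38237 for stellate cells. For endothelial markers the ranges were 11240 to 12394 and 10470 to 12381, for lymphocytes 211 to 239 and 531 to 625, and for fetal liver 174 to 402 and 34236 to 48134. Among Vps15LKO livers the cholangiocyte and stellate sums were highest in replicate 3 and the macrophage sum was lowest there. Lin28b was at 0 in all livers and Hbb-bh1 in WT livers. The part of these cells in the members' values was not tested.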

How the data were processed

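RNA-seq of 3 WT and 3 Vps15LKO livers gave 1 value per gene and library. Per the labels, poly(A) RNA was made into libraries that mark the strand. The authors mapped filtered reads to GRCm38 with HISAT2, counted them with featureCounts and divided the counts by DESeq2 size factors. The deposited values are therefore a signal, and 100.0% of them were whole multiples of 1 read (within 0.01), so whole reads were recovered. Strand and multi-mapping settings are not given in the sources used here. Total counts per library were 16137093 to 18110223. Floors cover counting error only.

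Symbols, coordinates and exon lengths came from GENCODE M21, which matched 55227 genes. limma 3.58.1 (R 4.3.3, lmFit and eBayes with a trend) compared the genotypes on log2(value + 1), with Benjamini-Hochberg adjustment over 15430 genes. On simulated counts (15400 genes) 98.5% of 199 changed genes were recovered, with 7 false calls. In the data 66.5% of the tested genes were called, and the error rate of those calls was not tested. Fold changes on this scale understate those of low genes. The labels do not say whether replicates share a litter. Replicates of 1 genotype differed by more than sampling noise. Replicate numbers showed no pairing of the samples, so no block was used.

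Members and lists were chosen with earlier results of these data known. Values in every liver are given for the largest rises and falls and the highest levels of each family, members at the floor in 1 genotype, and opposite neighbours. From the lists, cofactor enzymes, receptors and up to 3 genes of largest change per list were named. Gusb, Abcb11, Abcc2, Slc7a11, Gls2, Cth, Cbs, Cyp2c40, Gm3776 and Gm20528 were chosen after their values were seen. Alternatives were other pseudocounts, filters, scalings, thresholds and lengths, edgeR 4.0.16, DESeq2 1.42.0 and voom on recovered reads, limma with no trend, the replicate block, and each replicate left out. Sequences came from RefSeq (GRCm38.p6). A few genes of the lists are not reported here.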

Additional observations from a re-analysis of the deposited data

How the results depend on the processing

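Each fold change of 68 genes (the 52 tested members and 16 genes of the lists) was recomputed under 19 alternative settings, giving 1283 values. Of these, 1206 kept their direction and their side of the threshold, 49 kept the direction but lost the call, 7 gained a call and 21 changed sign. Changes of sign came from scaling or, for Ahr, also from the model. Under total-read scaling the log2 fold changes became 0.24 for Gstm6, 0.48 for Gsto1, 0.08 for Gstp2, 0.18 for Sult1a1, 0.18 for Ugt2b34, 0.51 for Ugt2b35, 0.12 for Ugp2, 0.56 for Gclm, 0.43 for Keap1, 0.013 for Nr1i2 and 0.68 for Ahr. Under quantile normalization they became 0.26 for Gsto1, 0.15 for Sult1a1, 0.43 for Ugt2b34, 0.43 for Ugt2b35, 0.17 for Ugp2, 0.52 for Gclm and 0.14 for Ahr. Ahr was at 0.00096 under TMM scaling, at 0.079 under upper-quartile scaling and at 4.3e-05 with limma voom on recovered reads. Total-read scaling left 4 Gst genes lower and called 1 Ugt gene higher. It changed the log2 ratios of the family sums to 1.55 for Gst, −0.71 for Mgst, −1.17 for Ugt and −0.90 for Sult. It also left 0 genes of UDP-glucuronate supply lower, and called 4 genes of PAPS supply higher and 3 lower, 1 other conjugating enzyme higher, 9 regulators higher and 7 lower, 1 Nrf2 target lower, 6 CAR and PXR targets higher and 0 AhR targets lower. Quantile normalization called 20 members lower in all, 5 Gst genes lower, 9 Ugt genes lower and 2 Ugt genes higher. Total-read scaling by its construction raised the median gene by 0.72 on the log2 scale, and the cause of the quantile shifts was not tested. A filter of 20 normalized counts in every liver left 8 members higher in all and 0 Sult genes higher, because genes near 0 in WT liver were no longer tested. Without a filter 8 Sult genes and 1 Ugt gene were higher. A fold of at least 2 left 5 Gst genes higher and 5 lower. Leaving out 1 replicate gave 5 to 9 Gst genes higher, with 5 when Vps15LKO replicate 1 was left out. The exon length used also mattered. With the principal transcript length the log2 ratio of the Gst sum was 0.44, and the shares changed by −9.43 percentage points for the alpha class, 39.9 for the mu class and −56.0 for Sult2a8. Without division by length the ratio was 0.48 for Gst and −2.30 for Sult, and the shares changed by −12.8 for the alpha class, 40.4 for the mu class, −61.8 for Sult2a8 and 6.07 for the Ugt1a locus.

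With replicate number as a block, 14 members were higher and 36 lower, and 75 of 76 results with a test kept their call. The correlations of deviations between samples of the same number were −0.0099, −0.011 and 0.049. Between samples of unlike number they were −0.063 to 0.088. They showed no pairing by number, but cannot tell whether mice shared a litter. Genes at the floor of 3 reads in 1 genotype allow only a bound on their fold, and members with under 20 normalized counts were too low for the test. With 3 livers a genotype, 1 liver decides the calls of Gsta2, Gsta4, Gstm1, Gstm4, Gstt2, Gstt3, Sult1a1 and Ugt2b34, and of Ugdh, Ugp2 and Keap1.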
